A study of Mus musculus with 8 samples.

Results

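Expression of 10 genes of the growth hormone and insulin-like growth factor (IGF) axis was examined in livers of fasted mice that drank 30% (w/v) fructose for 22 weeks. The 10 genes, Ghr, Stat5b, Socs2, Cish, Igf1, Igfals, Igfbp1, Igfbp2, Igfbp3 and Igfbp4, were taken by name from a table of 46078 genes, and all 10 were among the 14654 genes abundant enough to be tested. Polyadenylated RNA was sequenced from 5 wild-type mice (WT) and 3 mice in which the splicing regulator Rbfox2 was deleted in hepatocytes (Rbfox2 KO). Per the methods of the study, the animals were male, all received the fructose from 8 weeks of age, and all carried loxP-flanked Rbfox2 alleles. Only the Rbfox2 KO mice carried Cre recombinase, driven by the albumin promoter, so the other cells of the liver kept the gene. The comparison asks whether transcripts of the axis differ when this splicing factor is missing from hepatocytes of mice on an obesogenic drink.

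In this axis, pituitary growth hormone binds its receptor on hepatocytes, the associated kinase JAK2 phosphorylates STAT5, and STAT5 enters the nucleus and activates its target genes. Igf1, the main endocrine growth factor made by the liver, is the best known of these targets. Circulating IGF-I is held by IGF-binding proteins and by the acid-labile subunit, which set how long it lasts and how much of it reaches its receptor. Fasting and insulin act on the same axis, since insulin represses Igfbp1 and poor nutrition makes the liver less sensitive to growth hormone.

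Promoter sequences are shown first for the members that hold a match to the DNA motif of the factors just described. RefSeq promoter windows (GRCm38.p6, 250 bases before to 50 bases after an annotated start) were found for 9 of the 10 members, as 14 windows. The motif TTCNNNGAA, the core recognised by STAT5, reads the same on both strands and occurred in 3 of the 14 windows, those of Cish and Igfals. Across all 32851 windows, 8.3% held it. CAAAACA, a FOXO-type motif searched on both strands, occurred in 1 of the 14 windows, that of Igfbp1, and in 6.28% of all windows. FOXO factors are the insulin-sensitive activators of Igfbp1. The matches, in capitals, were as follows in stretches of the plus strand at chr9:107296579-107296678 (Cish), chr17:24877594-24877693 and chr17:24878128-24878227 (Igfals windows 1 and 2) and chr11:7197634-7197733 (Igfbp1).
Cish: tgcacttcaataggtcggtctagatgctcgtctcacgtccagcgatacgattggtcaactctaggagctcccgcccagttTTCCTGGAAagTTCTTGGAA
Igfals window 1: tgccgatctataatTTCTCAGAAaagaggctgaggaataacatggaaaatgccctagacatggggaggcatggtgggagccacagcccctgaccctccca
Igfals window 2: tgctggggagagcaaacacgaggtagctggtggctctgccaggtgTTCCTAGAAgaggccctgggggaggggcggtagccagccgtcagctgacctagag
Igfbp1: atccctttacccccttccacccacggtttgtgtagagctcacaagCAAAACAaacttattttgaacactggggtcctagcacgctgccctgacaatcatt
Counted from 0 at the annotated start, the Cish matches spanned 0 to 8 and 11 to 19, the Igfals matches -236 to -228 and -58 to -50, and the Igfbp1 match -108 to -102. A match describes these letters only, and binding was not measured.

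Total counts ranged from 24829693 to 37823155 per mouse, and levels are given as CPM, the count of a gene relative to the depth of its library, corrected by edgeR's trimmed mean of M-values (TMM). A level of 3 counts, the smallest taken as detected, equalled 0.0839 to 0.118 CPM, and every member lay above it in every mouse. Rbfox2 averaged 18.9 ± 3.39 CPM (SD) over the 5 WT mice and 9.28 ± 2.84 CPM (SD) over the 3 Rbfox2 KO mice. All Rbfox2 KO mice lay below all WT mice (two-sided exact permutation p = 0.0179, the smallest that 5 against 3 mice allow), while the edgeR adjusted p over all genes was 0.328. Markers of hepatocytes summed to 66030 to 73240 CPM in WT and 62220 to 73260 CPM in Rbfox2 KO mice, with all 6 detected in both groups. Rbfox2 KO 1 stood apart: its pancreatic acinar markers (10 of 10 detected, and 9 of 10 in WT mice) summed to 413.6 CPM, against 0.0559 to 9.86 CPM in the other 7 mice, and major urinary protein (Mup) genes took 6.54% of its counts, against 17.8% to 35.3%. Fold changes of the members are given with and without this library.

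No member passed the test for a difference between genotypes. At an adjusted p of 0.05 (edgeR quasi-likelihood F test, Benjamini-Hochberg over all 14654 genes), 0 members passed, as did 0.0% of all genes, and every member had an adjusted p of 1.0. At an unadjusted p of 0.05, 0 of 10 members passed with edgeR, where 4.74% of all genes did (2.41% higher and 2.33% lower in Rbfox2 KO), and 0 passed with DESeq2, where 4.93% did. DESeq2 called 0 members after adjustment and 0.403% of all genes. The ranges of the WT and Rbfox2 KO mice overlapped for all 10 members, while 3.71% of all genes had ranges that did not (1.89% with Rbfox2 KO higher and 1.82% with it lower). The estimated log2 fold change was above 0 for 8 members, all but Ghr and Stat5b, against 50.2% of all genes. The median log2 fold change of the members was 0.16, against 0.000953 over all genes. Without Rbfox2 KO 1, the log2 fold changes of Socs2 (-0.0463) and Igfbp1 (-0.00129) were below 0 as well. A p that misses the threshold does not show equal levels, so the interval of each difference is given below.

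**Figure D1:**
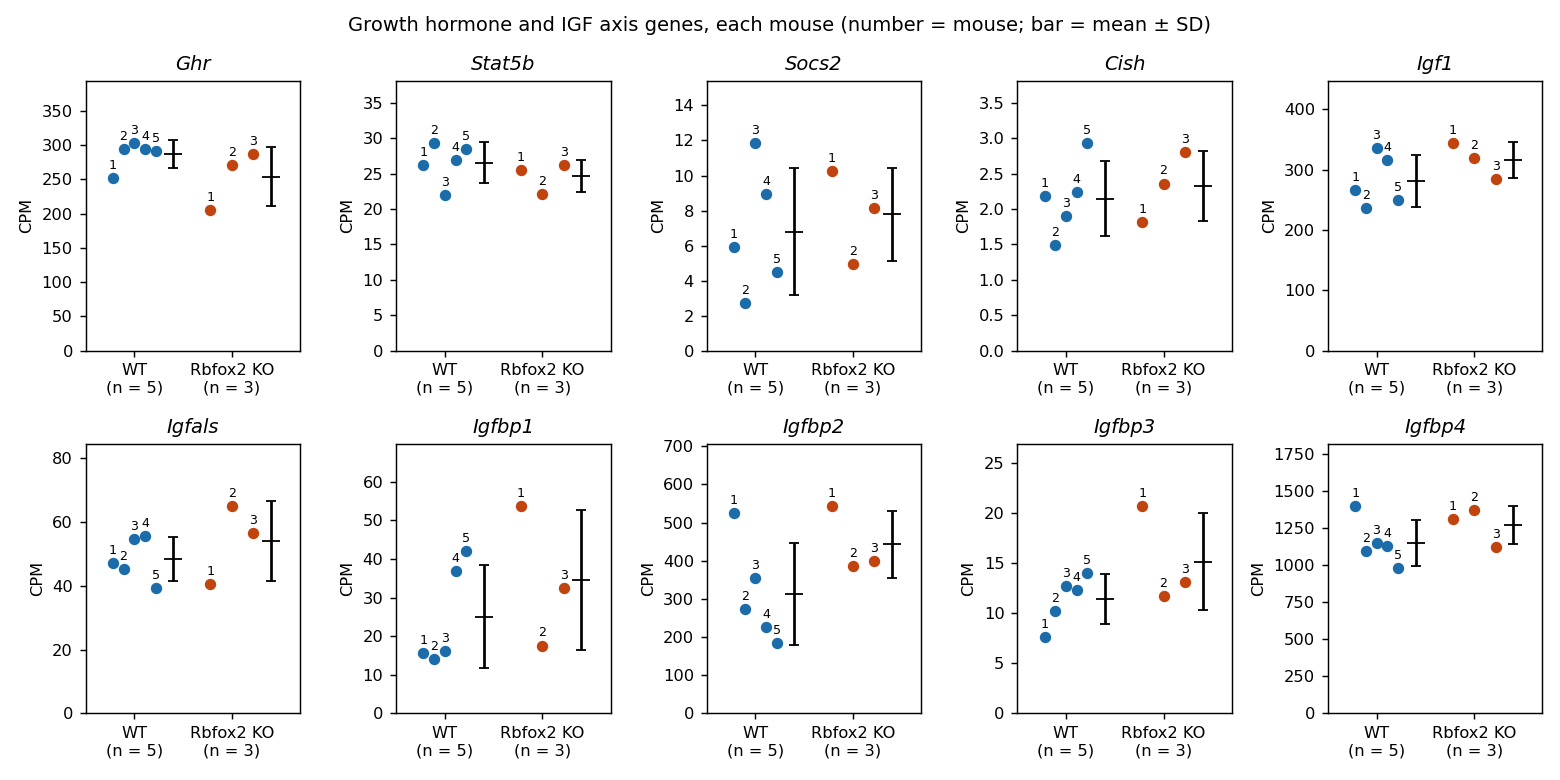
TMM-scaled level (CPM, axis from 0) of each member in each liver. Points are mice, labelled by their number, in blue for WT (n = 5) and orange for Rbfox2 KO (n = 3), and the black bars are the mean ± SD. The groups overlap in all 10 panels, and Socs2, Igfbp1 and Igfbp2 have the widest relative spread among WT mice.

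Transcripts of the receptor and of its signal transducer varied least of all members among WT mice. Ghr (ENSMUSG00000055737, chr15:3317760-3583492, minus strand, GRCm38) encodes the growth hormone receptor. It was 252, 295, 303, 295 and 292 CPM in WT 1 to 5 and 205, 270.5 and 287 CPM in Rbfox2 KO 1 to 3. WT 1 was the low mouse of its group, and Rbfox2 KO 1 was the lowest of all 8. Rbfox2 KO against WT gave a log2 fold change of -0.18 ± 0.13 (SE), with a 95% interval of -0.46 to 0.10 and an unadjusted edgeR p of 0.191. Without Rbfox2 KO 1 the log2 fold change was -0.05. Stat5b (ENSMUSG00000020919, chr11:100780731-100850724, minus strand) encodes the STAT protein that carries the male pattern of growth hormone signalling in liver. It averaged 26.6 ± 2.84 CPM (SD) in the 5 WT mice and 24.7 ± 2.21 CPM (SD) in the 3 Rbfox2 KO mice, and the interval of its log2 fold change, -0.11, was -0.36 to 0.14. Without Rbfox2 KO 1 it was -0.14. In its longest transcript, 21.1% of bases lay in 50-base stretches also found in the neighbouring paralogue Stat5a, so its count is less certain than that of Ghr, which shared none. Socs2 shared 10.6% of bases in this way with Gm8000 and Gm9847, Igfbp4 8.07% and Cish 1.23% with many genes, and the remaining members none.

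The feedback inhibitors Socs2 and Cish were the scarcest members. Both encode SOCS-box proteins that are induced by STAT5 and dampen the receptor's signal. Socs2 (ENSMUSG00000020027, chr10:95385362-95417180, minus strand) was 5.91, 2.75, 11.8, 8.95 and 4.49 CPM in WT 1 to 5 and 10.3, 4.96 and 8.14 CPM in Rbfox2 KO 1 to 3. The highest WT mouse had 4.31 times the level of the lowest, and all 3 Rbfox2 KO mice fell inside that range. Between genotypes, Socs2 gave a log2 fold change of 0.20 ± 0.45 (SE), with a 95% interval of -0.81 to 1.22, and it was -0.05 without Rbfox2 KO 1. Cish (ENSMUSG00000032578, chr9:107296026-107302784, plus strand) averaged 2.15 ± 0.53 CPM (SD) in the 5 WT mice and 2.33 ± 0.49 CPM (SD) in the 3 Rbfox2 KO mice. Its 46 to 100 counts per mouse were the fewest of any member, and its log2 fold change of 0.12 had a 95% interval of -0.41 to 0.64. This was 0.26 without Rbfox2 KO 1 and -0.0439 without Rbfox2 KO 3. Antisense genes overlapped 740 of its exon bases, and whether reads were counted by strand was not stated.

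Igf1 and Igfals encode the hormone and the acid-labile subunit that keeps it in a long-lived complex in blood. Igf1 (ENSMUSG00000020053, chr10:87858265-87937042, plus strand) was 266, 236, 335, 316 and 250.1 CPM in WT 1 to 5 and 344, 319 and 285 CPM in Rbfox2 KO 1 to 3. Rbfox2 KO 1 lay just above the highest WT mouse, and the other Rbfox2 KO mice lay within the WT range. For Igf1 the log2 fold change was 0.17 ± 0.14 (SE), with a 95% interval of -0.13 to 0.47 and an unadjusted edgeR p of 0.241, and it was 0.10 without Rbfox2 KO 1. Igfals (ENSMUSG00000046070, chr17:24865997-24882010, plus strand) was 47.2, 45.3, 54.8, 55.5 and 39.3 CPM in WT 1 to 5 and 40.6, 65.1 and 56.6 CPM in Rbfox2 KO 1 to 3. Rbfox2 KO 1 was close to the lowest WT mouse and the other Rbfox2 KO mice were above all WT mice. For Igfals it was 0.16 ± 0.16 (SE; 95% interval -0.20 to 0.52). Without Rbfox2 KO 1 it was 0.32, with an unadjusted edgeR p of 0.0464 and an adjusted p of 1.0, and without Rbfox2 KO 2 it was 0.00495.

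Igfbp1, Igfbp2 and Igfbp3 had the largest estimated differences of the 10 members, while that of Igfbp4 was among the smallest. Igfbp2 (ENSMUSG00000039323, chr1:72824503-72852474, plus strand) encodes an abundant serum carrier of IGFs that rises in undernutrition. It was 525, 273, 356, 227 and 185 CPM in WT 1 to 5 and 544, 387 and 398 CPM in Rbfox2 KO 1 to 3. WT 1 was high for its group, and the other 4 WT mice lay below all Rbfox2 KO mice. The log2 fold change was 0.50 ± 0.31 (SE), with a 95% interval of -0.19 to 1.20, or 0.874 to 2.29 times the WT level. Without WT 1 the log2 fold change was 0.76, with an unadjusted edgeR p of 0.00664 and an adjusted p of 0.628. Without Rbfox2 KO 1 it was 0.32. Pancreatic acinar markers were highest in the same 2 mice that had the most Igfbp2, at 9.86 CPM in WT 1 and 413.6 CPM in Rbfox2 KO 1, and their part in this result was not tested.

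Igfbp1 (ENSMUSG00000020429, chr11:7197782-7202546, plus strand) encodes the rapidly regulated carrier that insulin represses and fasting raises. It was 15.6, 14.2, 16.3, 36.9 and 42.1 CPM in WT 1 to 5 and 53.7, 17.6 and 32.5 CPM in Rbfox2 KO 1 to 3. The 8 mice fell into 4 with 14.2 to 17.6 CPM and 4 with 32.5 to 53.7 CPM, and each set held mice of both genotypes. For Igfbp1 the log2 fold change was 0.47 ± 0.50 (SE), with a 95% interval of -0.70 to 1.64, equal to 0.617-fold to 3.11-fold, and it was -0.00129 without Rbfox2 KO 1. Of the 4 high mice, WT 4, WT 5 and Rbfox2 KO 1 also had the highest sums of the 8 skeletal muscle markers, 259, 366 and 211 CPM, while Rbfox2 KO 3 had 7.16 CPM. The 4 low mice had sums of 1.22 to 44.2 CPM, and the part of muscle RNA in the result was not tested. In RNA from whole liver, fewer cells of a type and less RNA per cell cannot be told apart.

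Igfbp3 (ENSMUSG00000020427, chr11:7206086-7213923, minus strand) encodes the main serum IGF carrier, which in liver is made largely outside hepatocytes. Its gene ends 3539 bases from the end of Igfbp1, on the opposite strand. It was 7.65, 10.3, 12.7, 12.3 and 14.0 CPM in WT 1 to 5 and 20.7, 11.7 and 13.1 CPM in Rbfox2 KO 1 to 3. Rbfox2 KO 1 lay above all other mice, and the remaining Rbfox2 KO mice lay within the WT range. For Igfbp3 the log2 fold change was 0.41 ± 0.22 (SE; 95% interval -0.09 to 0.91), with the smallest unadjusted edgeR p of any member, 0.0972. Without Rbfox2 KO 1 it was 0.11, and without Rbfox2 KO 2 it was 0.56 with an unadjusted edgeR p of 0.0421 and an adjusted p of 0.736. Stellate cell markers, all 7 of them detected in both groups, summed to 265 CPM in Rbfox2 KO 1 and 145 to 208 CPM in the other mice. In Rbfox2 KO 1, Dcn (166 CPM), Col3a1 (37.3 CPM), Col1a1 (10.5 CPM) and Pdgfrb (5.46 CPM) lay above all WT mice. Lrat (9.7 CPM) and Des (14.15 CPM) lay within the WT range in that mouse, and Reln (21.5 CPM) lay below it. Kupffer cell markers (7 of 7 detected) summed to 204 to 236 CPM in WT and to 272, 214 and 289 CPM in Rbfox2 KO 1 to 3, and sinusoidal endothelial markers (7 of 7 detected) to 184 to 203 CPM and 172 to 196 CPM. The Kupffer markers did not move together. Their log2 fold changes were 1.16 for Marco, 0.44 for Cd5l, 0.28 for Adgre1, 0.19 for Timd4 and 0.14 for Vsig4. Those of Csf1r and Clec4f were 0.02 and -0.03. The part of stellate, Kupffer and endothelial cells in the Igfbp3 result was not tested. Igfbp4 (ENSMUSG00000017493, chr11:99041244-99054392, plus strand), an inhibitory carrier that the protease PAPP-A cleaves to free the bound IGF, ranged from 979 to 1401 CPM in WT and from 1125 to 1371 CPM in Rbfox2 KO mice. Its log2 fold change was 0.14 ± 0.14 (SE), with a 95% interval of -0.17 to 0.45, and it was 0.11 without Rbfox2 KO 1.

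**Figure D2:**
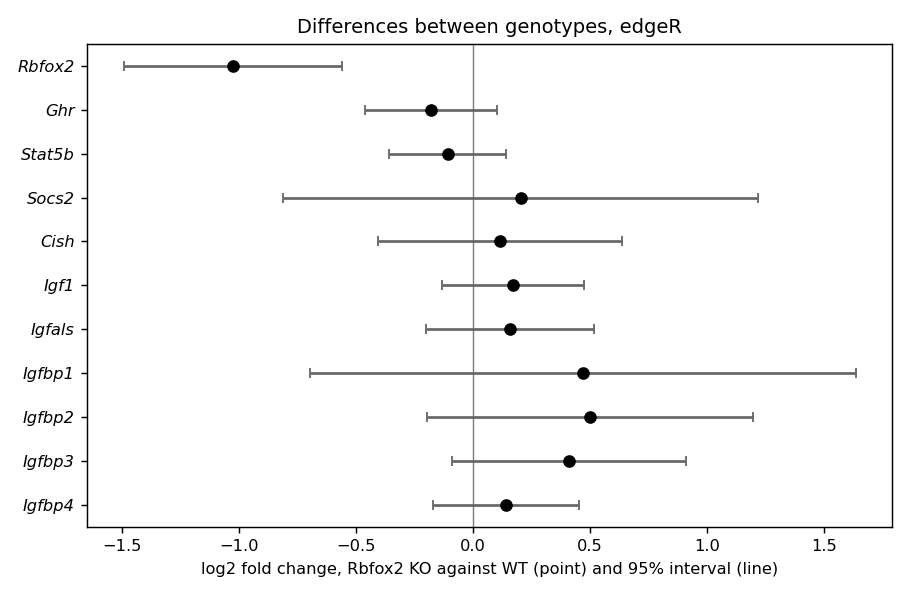
Estimated log2 fold change of Rbfox2 KO against WT (edgeR; horizontal axis) for Rbfox2 and the 10 members, with points for estimates and lines for 95% intervals. The interval of Rbfox2 lies between -1.49 and -0.56, and the intervals of all 10 members include 0, from -0.36 to 0.14 for Stat5b to -0.70 to 1.64 for Igfbp1.

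Members differed far more from each other than between genotypes. Divided by the summed length of exons, the WT level of Igfbp4 was 261 ± 34.9 CPM per kilobase (SD, n = 5), 781 times the 0.334 ± 0.0823 CPM per kilobase (SD, n = 5) of Cish. Igfbp2 came next, at 169.5 ± 72.8 CPM per kilobase, and its range in WT mice overlapped that of Igfbp4. Ghr, at 31.7 ± 2.23 CPM per kilobase, and Igf1, at 28.4 ± 4.35 CPM per kilobase, overlapped each other and lay apart from Igfbp2. Igfbp1 (16.4 ± 8.76 CPM per kilobase) overlapped Igf1 above it and Igfals (15.3 ± 2.15 CPM per kilobase) below it. Stat5b (4.80 ± 0.51 CPM per kilobase) and Igfbp3 (3.64 ± 0.80 CPM per kilobase) overlapped each other and lay apart from Igfals above and from Socs2 below. Socs2 was at 0.712 ± 0.38 CPM per kilobase and overlapped Cish. When the longest transcript was used as the length, Igfals moved above Igfbp1, with overlapping ranges, and the ranges of Ghr and Igf1, at 68.8 and 39.8 CPM per kilobase, no longer overlapped. Nor did those of Socs2 and Cish, at 1.60 and 0.457 CPM per kilobase on that length.

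**Figure D3:**
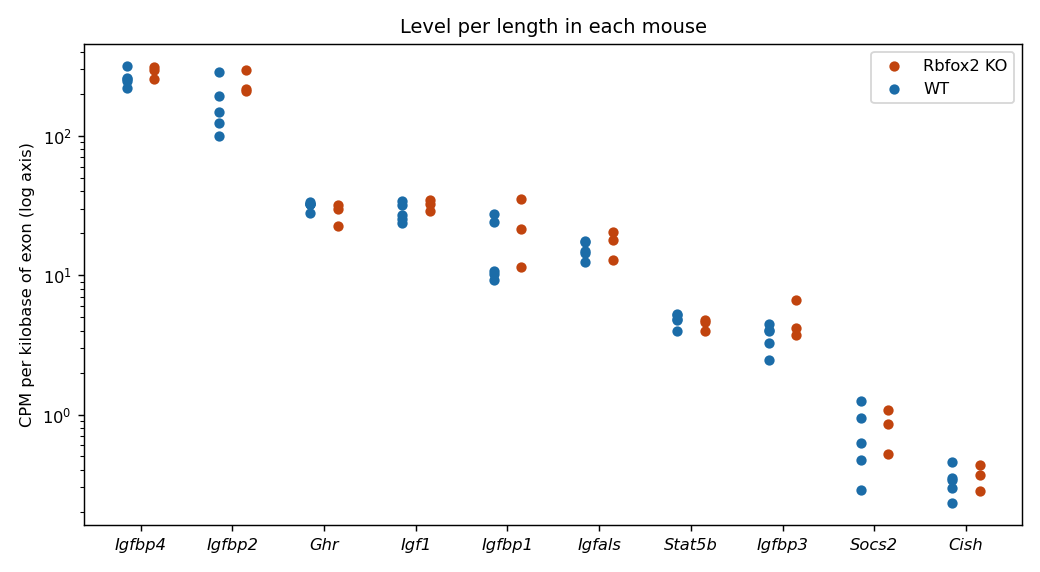
Level of each member in CPM per kilobase of exon (log axis), ordered by the WT mean. Points are mice, in blue for WT (n = 5) and orange for Rbfox2 KO (n = 3). Igfbp4 and Igfbp2 lie highest and Socs2 and Cish lowest, and the columns of the genotypes overlap for every gene.

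Mouse-to-mouse spread within WT divided the members. The coefficient of variation over the 5 WT mice was above 40% for Socs2, Igfbp1 and Igfbp2, or 3 of 10 members, against 8.81% of all tested genes. It was 53.5% for Igfbp1, with 95.8% of tested genes varying less. For Socs2 it was 53.4% and for Igfbp2 43.0%, with 95.8% and 92.6% of tested genes varying less. Ghr was among the steadiest, at 7.01%, and only 11.5% of tested genes varied less. Stat5b (10.7%), Igfbp4 (13.4%), Igfals (14.1%) and Igf1 (15.3%) lay below the median of all tested genes, 15.4%, while Igfbp3 (21.9%) and the scarce Cish (24.6%) lay above it. Igfbp1 was also the most variable member among the 3 Rbfox2 KO mice, at 52.5%, where the median of all tested genes was 15.1%. The receptor and the hormone were steadier among WT mice than the inhibitor Socs2 and the carriers Igfbp1 and Igfbp2.

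**Figure D4:**
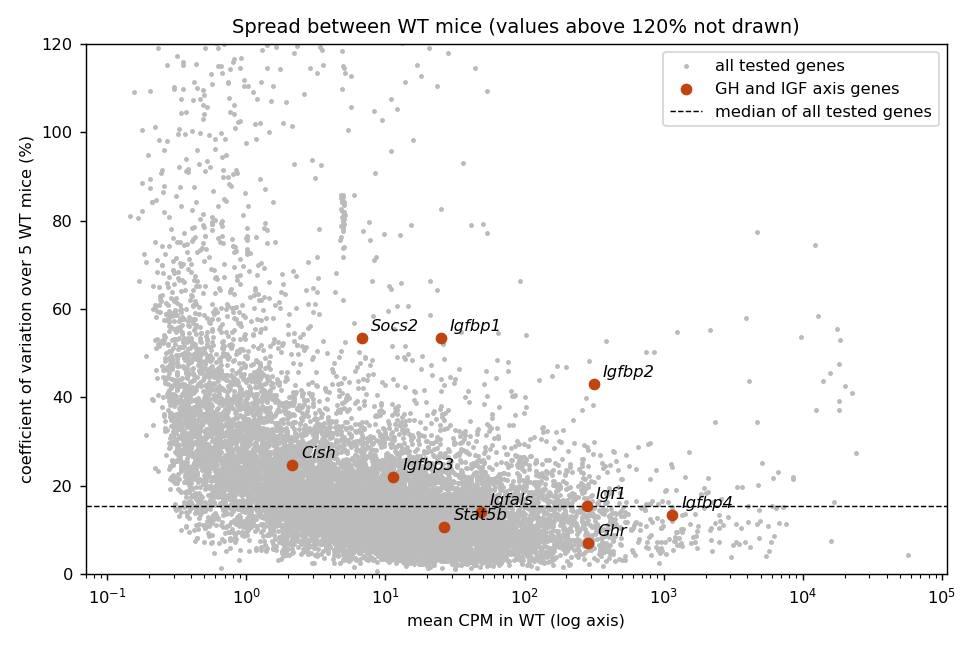
Coefficient of variation over the 5 WT mice (%, vertical axis) against the mean WT level (CPM, log axis), with all tested genes in grey, the 10 members in orange and the median of all tested genes, 15.4%, as a dashed line. Socs2 (53.4%), Igfbp1 (53.5%) and Igfbp2 (43.0%) lie above the bulk of genes of like level, and Ghr (7.01%) lies near the lower edge.

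Of 6 relations between members across the 8 mice, 4 could be tested, because Igfbp1 separated the mice into clusters of 4 and the 2 relations with it were left untested. The adjustment, planned over all 6, was made over the 4 tested, which is less strict. Socs2 and Igf1, both targets of STAT5, were the pair that moved most closely together, with Pearson r = 0.835 on log2 CPM (n = 8, exact permutation p = 0.0142, adjusted over the 4 relations 0.0567). Spearman's rho was 0.833 (exact permutation p = 0.0154, adjusted 0.0615), so neither passed 0.05 after adjustment. Without WT 2 and WT 3, the mice farthest from the median of Socs2, r was 0.657, and without Rbfox2 KO 1 it was 0.804. After the mean of each genotype was removed, r was 0.843 (permutation of the residuals over all 8 mice, p = 0.00908, adjusted 0.0363). Residuals within a genotype depend on each other, so this p is approximate and is not read as passing 0.05. WT 2 was lowest in both genes and WT 3 and Rbfox2 KO 1 were highest in both, although these last 2 livers had the largest and the smallest Mup shares, 35.3% and 6.54%. No sequencing batch or date was given in the labels, so the relation could not be examined within batches. The remaining pairs moved less closely: r was -0.37 for Ghr and Igf1 (rho -0.167), 0.407 for Igf1 and Igfals (rho 0.286) and 0.122 for Socs2 and Cish (rho -0.19). Their exact permutation p-values for r were 0.389, 0.305 and 0.76, with adjusted values of 0.519, 0.519 and 0.76, and those for rho were 0.703, 0.501 and 0.665, each 0.703 after adjustment. Without the 2 mice farthest from the median of the first gene, r was -0.104, -0.0709 and -0.575 in the same order. Igf1 and Igfals gave r = 0.812 without Rbfox2 KO 1 (exact permutation p = 0.031, adjusted 0.0619).

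**Figure D5:**
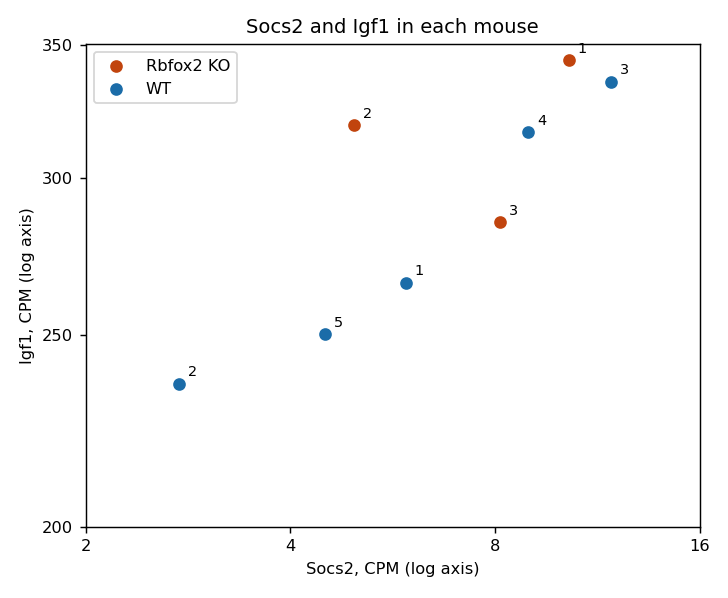
Igf1 level against Socs2 level (CPM, both axes log) in each mouse, in blue for WT and orange for Rbfox2 KO, with numbers naming the mice. The mice rise from WT 2 (2.75 CPM Socs2, 236 CPM Igf1) to WT 3 and Rbfox2 KO 1 at the upper right, and Rbfox2 KO 2 lies to the upper left of that course, at 4.96 CPM Socs2 and 319 CPM Igf1.

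Genes whose pattern over the 8 mice was most like that of Igf1, Socs2 and Igfbp1 were sought among 6603 genes of at least 10 CPM, by the root mean square difference of z-scores of log2 CPM, where 0 is an identical pattern. For Igf1 they were Arl1 (0.218), a Golgi GTPase, Abhd17b (0.351), a depalmitoylase, and Ccm2 (0.367), a vascular scaffold protein. For Socs2 they were Guf1 (0.346), Nipsnap3b (0.418) and Cfl2 (0.436), the last an actin-severing cofilin. For Igfbp1 they were Vps35l (0.302), a subunit of an endosomal recycling complex, Ltbp4 (0.313), a matrix protein that binds latent TGF-beta, and Plekha1 (0.342), a phosphoinositide-binding adaptor. A like pattern did not mean a like range: Vps35l spanned 10.5 to 13.99 CPM over the 8 mice where Igfbp1 spanned 14.2 to 53.7 CPM.

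The rest of the pathway, from kinases and other STAT and SOCS genes to receptors, substrates, further binding proteins and their proteases, likewise held no gene past the adjusted threshold. Of 28 such genes, 25 were tested, 10 with a log2 fold change above 0 and 15 below. The median over the 25 was -0.06, beside 0.000953 for all genes. With edgeR, 0 passed an adjusted p of 0.05 and 1 of 25 passed an unadjusted p of 0.05, beside 4.74% of all genes, namely Cux2, a transcription factor that growth hormone maintains in female liver. Its level was 0.18 to 0.44 CPM in WT, 0.41 and 0.31 CPM in Rbfox2 KO 1 and 2 and 2.96 CPM in Rbfox2 KO 3. The log2 fold change of 1.87 ± 0.68 (SE; adjusted edgeR p 0.932) was 0.10 without Rbfox2 KO 3. The binding protein gene Igfbp7 averaged 49.2 ± 1.22 CPM (SD) in the 5 WT mice and 58.2 ± 11.9 CPM (SD) in the 3 Rbfox2 KO mice, with an unadjusted edgeR p of 0.0701. Rbfox2 KO 1 had 70.9 CPM of it, and without this mouse the log2 fold change of 0.24 was 0.0705 (unadjusted edgeR p 0.507). Without Rbfox2 KO 2 it was 0.372 (unadjusted edgeR p 0.00852, adjusted 0.514). Stat5a averaged 9.34 ± 1.79 CPM (SD) and 7.67 ± 0.73 CPM (SD) in the same groups, with an unadjusted edgeR p of 0.122. Its log2 fold change of -0.286 was -0.396 without WT 3 (unadjusted edgeR p 0.00902), and Stat5a did not pass after adjustment. Insulin receptor transcripts (Insr) were at 66.9 ± 7.57 CPM (SD, n = 5) in WT livers, and those of the IGF-I receptor (Igf1r) were near the detection floor, at 0.14 to 0.42 CPM over the 8 mice. Insr and Igf1r were chosen after their values were seen.

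The pulsed, male pattern of growth hormone secretion acts through STAT5b to keep one set of genes high in male liver and another low. Of 13 male-biased genes, 12 were tested, and 0 passed an adjusted or an unadjusted edgeR p of 0.05. Before adjustment, 3 passed without WT 3, where 632 of all 14560 genes tested did, and 1 without Rbfox2 KO 2, where 972 of 15058 did. Their median log2 fold change was 0.03, with a range of -0.63 to 0.53, and 7 were above 0, beside 50.2% of all genes. The smallest p-values belonged to the fatty acid elongase gene Elovl3 (196 ± 28.4 CPM in WT and 141 ± 92.0 CPM in Rbfox2 KO, mean ± SD), Gstp1, a glutathione transferase (857 ± 430 and 1238 ± 500 CPM), and Nudt7, a peroxisomal CoA hydrolase (199 ± 93.2 and 128 ± 54.4 CPM), at 0.214 to 0.221. Elovl3 was 66.6, 244 and 112 CPM in Rbfox2 KO 1 to 3. Its log2 fold change of -0.48 was -0.15 without Rbfox2 KO 1 and -1.14 without Rbfox2 KO 2 (unadjusted edgeR p 0.00055, adjusted 0.237). Of 17 female-biased genes, 13 were tested, 0 passed after adjustment and 1 passed before it (4.74% of all genes did), again Cux2, whose call was lost without Rbfox2 KO 3. Their median log2 fold change was 0.33, with a range of -1.69 to 1.87 and 8 above 0, where all genes had a median of 0.000953 and 50.2% above 0. The female-biased P450 genes Cyp3a16 (1.29 ± 0.58 CPM in WT and 2.19 ± 1.20 CPM in Rbfox2 KO) and Cyp3a44 (5.95 ± 5.10 and 2.71 ± 1.26 CPM) had log2 fold changes of opposite sign, 0.75 and -1.14, and unadjusted edgeR p-values of 0.166 and 0.188. The value for Cyp3a16 was 0.37 without Rbfox2 KO 1 and 1.14 without Rbfox2 KO 3, and that for Cyp3a44 was -0.74 without WT 2. Genes of one P450 cluster are near copies, so their counts are uncertain.

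Genes that fasting and FOXO1 induce, which share the nutritional control of Igfbp1, were the last list. All 11 were tested, and 8 had a log2 fold change above 0, where 50.2% of all genes did. The median over the 11 was 0.21, against 0.000953 over all genes. At an adjusted edgeR p of 0.05, 0 passed, and 1 of 11 passed before adjustment, beside 4.74% of all genes, namely Fgf21, a fasting hormone of the liver. Fgf21 averaged 11.2 ± 3.31 CPM (SD) in the 5 WT mice and 18.6 ± 5.20 CPM (SD) in the 3 Rbfox2 KO mice, with a log2 fold change of 0.73 ± 0.25 (SE), an unadjusted edgeR p of 0.0172 and an adjusted p of 0.894. Without Rbfox2 KO 1 its log2 fold change was 0.49 and it no longer passed (unadjusted edgeR p 0.0987). Fgf21 was 24.25, 17.6 and 14.0 CPM in Rbfox2 KO 1 to 3. Rbfox2 KO 1 also had the most pancreatic acinar marker RNA, whose part in this result was not tested. The tyrosine aminotransferase gene Tat was 671 ± 76.2 CPM (SD, n = 5) and 867 ± 294 CPM (SD, n = 3), and the coactivator gene Ppargc1a 6.23 ± 1.36 CPM (SD, n = 5) and 8.02 ± 2.58 CPM (SD, n = 3), with unadjusted edgeR p-values of 0.0925 and 0.153. Their log2 fold changes, both 0.37, were 0.0978 and 0.15 without Rbfox2 KO 3. Without Rbfox2 KO 2 they were 0.594 and 0.597, with unadjusted edgeR p-values of 0.0052 and 0.0215 and adjusted values of 0.484 and 0.657. Of the fasting list, 3 genes passed before adjustment without Rbfox2 KO 2, where 972 of all 15058 genes tested did. With a replicate block 3 passed as well, beside 739 of all 14654 genes.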

How the data were processed

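Livers of 5 WT and 3 Rbfox2 KO mice were profiled, grouped as their labels state. What was deposited is a table of raw counts per gene, which the authors made from 100-base paired reads of poly(A)-selected libraries with CASAVA, TopHat2 2.0.11 on GRCm38 (mm10) and featureCounts. The strand setting of the counting and its handling of multiply aligned reads were not stated, which makes paralogous and overlapping genes uncertain. The study named DESeq2 or edgeR-voom-limma for expression tests.

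Symbols for 45229 of 46078 genes and exon lengths came from GENCODE M21 on the same build. Genes were filtered with filterByExpr, scaled by TMM and compared between genotypes in edgeR 4.0.16 (R 4.3.3), by its quasi-likelihood F test in robust mode. The p-values of all 14654 genes were adjusted together by Benjamini-Hochberg. The SE was the log2 fold change divided by the root of F, and log2 CPM used a prior count of 2. Relations were tested by exact two-sided permutation of pairings. The rule for named genes took Rbfox2, the 10 members, the 3 smallest p-values of each list and the 3 genes most alike to Igf1, Igfbp1 and Socs2, and genes named outside it are marked as chosen after their values were seen. Members and lists were chosen with earlier results of these data known. Other settings were DESeq2 1.42.0, limma-voom (limma 3.58.1), another scaling, other filters, a non-robust fit, a replicate block, another length and leaving out each mouse. The edgeR steps were tested on simulated counts. Floors cover counting error only. The edgeR p-values weigh a genotype difference against the spread between mice, and permutation p-values rank a statistic among rearrangements of these mice.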

Additional observations from a re-analysis of the deposited data

Results flagged for a closer look

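In WT livers, WT 1 had a Ghr level of 252 CPM, below the other 4 mice, which lay between 292 and 303 CPM. The gap to the nearest mouse was 0.79 of the range of the group, larger than Dixon's 95% limit for 5 samples. The same mouse had the highest sum of pancreatic acinar markers in WT, 9.86 CPM against 0.097 to 0.266 CPM, a gap of 0.983 of the range. Over the 30 values examined in this way, chance gives 1.5 such gaps, and 2 were found.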

How the results depend on the processing

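In 160 fits of the members under 16 other settings, 0 passed an adjusted p of 0.05 and the smallest adjusted p was 0.628. At an unadjusted p under 0.05 there were 4: Igfbp2 without WT 1, Igfals without Rbfox2 KO 1, Igfbp3 without Rbfox2 KO 2 and Igfbp1 with the replicate block. In these 4 settings, in the same order, 866 of 14578, 570 of 14867, 972 of 15058 and 739 of 14654 genes passed. Over all genes, calls went from 0 to 6 without a filter on low counts and to 59 with DESeq2, which also called Rbfox2 (log2 fold change -1.03, adjusted p 0.00186). With library totals in place of TMM, the median log2 fold change of all genes was 0.12 and that of Stat5b turned to 0.00198. Leaving out 1 mouse gave log2 fold changes of -0.0463 to 0.50 for Socs2 (negative without Rbfox2 KO 1), -0.0439 to 0.26 for Cish (negative without Rbfox2 KO 3), -0.00129 to 0.78 for Igfbp1 (negative without Rbfox2 KO 1) and -1.30 to -0.85 for Rbfox2. It gave r of -0.577 to 0.134 for Ghr and Igf1 (positive without Rbfox2 KO 1), -0.68 to 0.361 for Socs2 and Cish (negative without WT 2) and 0.723 to 0.949 for Socs2 and Igf1. The last was past the threshold without Rbfox2 KO 2 (adjusted exact permutation p 0.00317). After removal of genotype means its r was 0.843, where the permutation p is only approximate. The level per kilobase moved by more than 1 SD for 7 of 10 members with the longest transcript as length.

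Whether equal sample numbers pair these mice could not be settled, since no test was made and deviations within a group depend on each other. Correlations of the deviations from the group means were 0.163, 0.0484 and 0.17 for mice of equal number. Those of the other pairs ran from -0.412 to 0.371, the highest between WT 3 and Rbfox2 KO 2. With the replicate block, 0 genes were called after adjustment and 739 before it, against 694 without it. The replicate block gave Igfbp1 a log2 fold change of 1.04 (unadjusted p 0.022, adjusted 0.888) and Igfbp2 0.24. With 5 against 3 mice, Igfbp1 and Socs2 differences of up to 1.64 and 1.22 in log2 lie inside their intervals, and spread between mice, not counting error, limits them.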

Other observations

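All genes named here were chosen after their values were seen, and no test was made. Several growth hormone-dependent genes varied widely among WT mice of 1 sex, tissue and diet. Hsd3b5, a male-specific steroid dehydrogenase gene, was 1.22, 1.94, 32.2, 10.7 and 2.54 CPM in WT 1 to 5 and 0.314, 20.7 and 5.57 CPM in Rbfox2 KO 1 to 3. Cyp2b9, a P450 gene repressed by male growth hormone pulses, was 81.6, 73.6, 1.79, 17.0 and 93.9 CPM in WT 1 to 5 and 7.25, 40.3 and 2.83 CPM in Rbfox2 KO 1 to 3. Among WT mice, WT 3 and WT 4 were thus the highest in Hsd3b5 and the lowest in Cyp2b9, and they were also the highest in Socs2 and Igf1. Bcl6, a repressor that opposes STAT5 at many liver genes, was highest in these mice too, at 31.5 and 40.0 CPM, against 9.64 to 13.5 CPM in the other 3. In Rbfox2 KO mice this order did not hold throughout: Rbfox2 KO 1 had 10.3 CPM of Socs2 with 0.314 CPM of Hsd3b5. Nor did every listed gene follow it among WT mice. Female-biased Cyp3a44 was 11.3 CPM in WT 4, above WT 1, WT 3 and WT 5 at 1.76 to 2.78 CPM. Male-biased Selenbp2 was highest in WT 1, at 28.8 CPM, against 23.2 and 21.4 CPM in WT 3 and WT 4.

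Also chosen after the values were seen, the 5 genes whose pattern over the 8 mice was most like that of Igfals held 4 from male-biased or Mup families: Mup21 (root mean square difference of z-scores 0.248), Cyp4a12b (0.271), Gstp2 (0.297) and Cyp4a12a (0.304). Mup21 spanned 58.9 to 183 CPM over the WT mice, and Rbfox2 KO 1 to 3 had 48.8, 345 and 282 CPM. Igfals itself spanned 39.3 to 65.1 CPM. Members of these families are near copies, so their single values are uncertain.

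Pdk4 and Lpin1, both induced by fasting and likewise chosen after their values were seen, were highest among WT mice in WT 4 and WT 5, the WT mice with the most Igfbp1. Pdk4 was 36.7 and 56.3 CPM in these mice and 8.69 to 12.6 CPM in the other 3, while Lpin1 was 42.2 and 97.1 CPM and 15.8 to 33.0 CPM. In Rbfox2 KO 1 to 3, Pdk4 was 25.6, 33.5 and 28.25 CPM and Lpin1 30.4, 18.4 and 58.1 CPM. Igfbp1 in these Rbfox2 KO mice was 53.7, 17.6 and 32.5 CPM, so Pdk4 did not follow its order. Both genes are also expressed in skeletal muscle, whose marker sums were highest in WT 4 and WT 5. Those sums were 211, 1.22 and 7.16 CPM in Rbfox2 KO 1 to 3, and the part of muscle RNA in the Pdk4 and Lpin1 values was not tested.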
